A study of Mus musculus with 6 samples.

Results

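The Vmn2r genes encode the V2R vomeronasal receptors, and their H3K9me3 was examined here in neural stem cells (NSCs) with and without PHF8. The genes were all protein-coding genes on chromosomes 1 to 19 whose symbol begins with Vmn2r in the GENCODE annotation of the mouse genome mm10. This gave 121 of the 20807 protein-coding genes on these chromosomes. There were 51 on chromosome 7, 32 on chromosome 17, 11 on chromosome 5, 9 on chromosome 6, 8 on chromosome 10, 7 on chromosome 3, 2 on chromosome 14 and 1 on chromosome 4. Neighbouring members less than 500 kb apart were joined, which put 116 members in 14 clusters and left Vmn2r-ps159, Vmn2r18, Vmn2r28, Vmn2r118 and Vmn2r120 alone. The symbols of 2 members contain ps, although the annotation lists both as protein-coding.

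The NSCs came from the fetal cerebral cortex of C57BL/6J mice and were infected with lentivirus carrying a scramble shRNA (shCTR) or one that targets PHF8 (shPHF8), followed by puromycin selection. H3K9me3, the trimethylation of lysine 9 of histone H3, was mapped by ChIP-seq in 2 libraries per condition. The comparison asks whether H3K9me3 over these genes differs when PHF8, a histone demethylase, is depleted. The study names H3K9me1, H3K9me2 and H4K20me1 as the marks that PHF8 removes, and H3K9me3 is not among them. Each library has a list of broad peaks, which gives positions in steps of 200 bp with no height, read count or p-value, so the depth behind a peak is unknown and a change in height inside a called peak is not seen. All values are therefore lengths covered by peaks, distances to peaks and counts of peaks.

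V2Rs are G protein-coupled receptors with a large extracellular domain, and they detect peptides and proteins carried in bodily secretions, among them exocrine gland-secreting peptides and major urinary proteins. They are expressed in sensory neurons of the basal layer of the vomeronasal organ, and Vmn2r1 to Vmn2r7 form a small subfamily that is co-expressed with the other receptors. The genes stand in tandem clusters that arose by duplication, with many pseudogenes among them. H3K9me3 marks constitutive heterochromatin and is also laid down over repeats and many clustered gene families, where it is associated with silencing. Cortical NSCs are not vomeronasal neurons, so these are genes of another tissue and lineage.

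For each condition the value of replicate 1 is given before that of replicate 2 throughout. Peaks on chromosomes 1 to 19 numbered 53039 and 53852 with shCTR, and 44205 and 55344 with shPHF8. The covered length was 156 and 159 Mb in shCTR and 219 and 197 Mb in shPHF8, a ratio of the condition means of 1.32. Every difference between conditions below has to be read against this genome-wide difference. With 2 libraries against 2, the exact permutation test, two-sided, cannot go below p = 0.333, so no difference between conditions can pass a threshold of 0.05. The labels do not say whether the 2 libraries of a condition came from separate cultures, and their spread may be technical. PHF8 depletion was by shRNA in a bulk culture, not by deletion. Of 8 NSC markers, Sox2, Nes, Fabp7, Vim, Hes1 and Notch1 had no peak within 1 kb of the start site in any library, Hes5 had one in shCTR replicate 1 and Pax6 had one in all 4 libraries. Peak lists do not measure expression, so they check neither the cell type nor the depletion of PHF8.

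Most Vmn2r genes lay outside H3K9me3 peaks in all 4 libraries. Of the 121 genes, 89 had no covered base in the gene or within 3 kb of it in any library. The other 32 (26.4%, against 57% of all protein-coding genes) had a covered base in at least 1 library. Cover in all 4 libraries was seen at 7 members (5.79%, against 35.7% of all protein-coding genes), namely Vmn2r7, Vmn2r10, Vmn2r24, Vmn2r25, Vmn2r97, Vmn2r104 and Vmn2r112. The body of the gene itself was covered in all 4 libraries at 3 of these, Vmn2r7, Vmn2r10 and Vmn2r24. The greatest share of any gene under peaks was 36.3%, at Vmn2r63 in shPHF8 replicate 2, so no member was covered from end to end.

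Over the whole family, the genes with their 3 kb flanks spanned 4390953 bp. Peaks covered 1.05 and 0.842% of this length in shCTR, and 1.52 and 2.18% in shPHF8. The same measure over all protein-coding genes was 6.98 and 7.20% in shCTR and 8.99 and 8.04% in shPHF8. The Vmn2r genes thus had less cover than protein-coding genes at large in each of the 4 libraries. The Vmn1r genes, which encode the V1R vomeronasal receptors, had similarly little, with 1.30 and 0.866% in shCTR and 1.77 and 2.25% in shPHF8. The Olfr genes, the odorant receptors of the main olfactory epithelium, had 1.46 and 1.36% in shCTR and 2.36 and 1.96% in shPHF8. The Zfp genes, zinc finger genes that also stand in clusters, were covered at 14.7 and 14.3% in shCTR and 18.9 and 17.1% in shPHF8, well above the receptor families in each library.

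**Figure D1:**
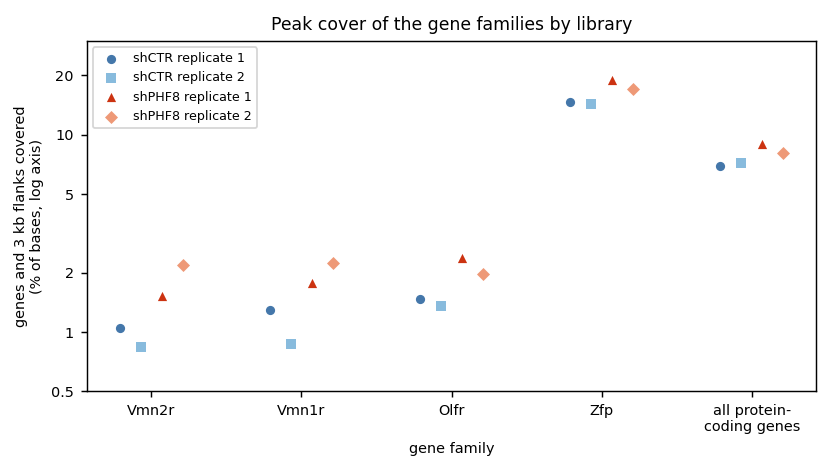
Share of the genes and their 3 kb flanks covered by H3K9me3 peaks (percent of bases, log axis) for the Vmn2r, Vmn1r, Olfr and Zfp genes and for all protein-coding genes, with 1 point per ChIP library. The Vmn2r points run from 0.842 to 2.18%, below the points of Zfp genes (14.3 to 18.9%) and of all protein-coding genes (6.98 to 8.99%) in each library.

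The coding sequence of the receptors was almost free of peaks. Peaks covered 904 and 0 bp of the 314230 bp of coding sequence in shCTR, and 1002 and 645 bp in shPHF8. This was at most 0.319% of the coding sequence in a library, whereas the coding sequence of all protein-coding genes was covered at 9.30 to 11.5%. Introns of Vmn2r genes were covered at 0.897 and 0.715% in shCTR and 1.12 and 1.86% in shPHF8. The untranslated and other non-coding exon bases were covered at 0.741 and 1.09% in shCTR and 2.80 and 3.04% in shPHF8. In these exon bases both shPHF8 libraries lay above both shCTR libraries by more than the spread within either condition. They lay in few regions, including 3556 bp in a region at Vmn2r97. Over all protein-coding genes such exon bases were covered at 5.94 and 6.45% in shCTR and 7.44 and 6.57% in shPHF8. Of the 45 pairs of a merged peak region and a member it touched, 18 lay within introns, 10 only downstream and 4 only upstream of the gene. Another 5 touched coding sequence, and 8 touched other exon bases and no coding sequence.

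Start sites in the GENCODE annotation were also outside peaks. None of the 121 genes had its GENCODE start inside a peak in any library, and a peak came within 1 kb of the start at 2 members, Vmn2r104 and Vmn2r81. For Vmn2r104, on the minus strand of chromosome 17, the edge of a peak lay 865 bp upstream of the gene in both shCTR libraries. It was nearer with shPHF8, at 665 bp in replicate 1 and 65 bp in replicate 2. For Vmn2r81, on chromosome 10, the peak nearest the start lay 892 bp upstream in shPHF8 replicate 2 and 1692 bp upstream in shCTR replicate 1. In shCTR replicate 2 and shPHF8 replicate 1 it was 57309 and 117292 bp from the start. RefSeq promoter windows, from 250 bp before to 50 bp after a start, were found for 114 of the 121 genes. Of their 115 windows, 2 had a covered base, 55 bp at Vmn2r104 in shPHF8 replicate 2 and the whole window of a RefSeq start of Vmn2r29, upstream of its GENCODE start, in shCTR replicate 1. The counts at starts and at promoter windows were not made over all protein-coding genes, so whether they differ from other genes is not known.

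The 200 bases upstream of the annotated start of Vmn2r104, chr17:20048337-20048536 of GRCm38, show how close the peak came to the start in the library where it was nearest. They are printed from 5′ to 3′ on the minus strand, and the capitals mark the 136 bases under the peak of shPHF8 replicate 2, while 0 of these bases were under a peak in the other libraries.
Vmn2r104: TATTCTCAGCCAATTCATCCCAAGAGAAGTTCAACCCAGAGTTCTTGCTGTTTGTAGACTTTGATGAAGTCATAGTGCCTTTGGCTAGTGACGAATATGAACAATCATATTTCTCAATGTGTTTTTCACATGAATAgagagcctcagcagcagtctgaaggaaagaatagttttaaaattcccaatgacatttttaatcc

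Regions found in shPHF8 only are the second group of sequences. Overlapping or adjoining peaks from any of the 4 libraries were joined into 70705 regions on chromosomes 1 to 19, of which 44 touched a Vmn2r gene or its 3 kb flanks. A region with a peak in both shPHF8 libraries and in no shCTR library was counted as gained, and the opposite case as lost. There were 5 gained regions and 0 lost regions at Vmn2r genes, so 5 of the 121 genes (4.13%) were linked to a gained region and 0 to a lost region. Over all protein-coding genes 5.16% were linked to a gained region and 8.9% to a lost region. Counted by region, gained regions were 11.4% of the 44 at members and 4.29% of all 70705, and lost regions 0 and 5.00%. Without shPHF8 replicate 1 the genes linked to a gained region numbered 14 (against 14.5% of all). Genes linked to a lost region numbered 4 without shCTR replicate 1 (17.7% of all), 3 without shCTR replicate 2 (16%) and 2 without shPHF8 replicate 2 (14.7%). The 5 genes were Vmn2r13, Vmn2r61, Vmn2r63, Vmn2r89 and Vmn2r97. The middle 200 bases of the stretch shared by both shPHF8 libraries are printed below for the 4 regions that lie outside exons there, read on the plus strand of GRCm38, with capitals for bases that the assembly does not mask as repeats.
Vmn2r13, chr5:109167901-109168100: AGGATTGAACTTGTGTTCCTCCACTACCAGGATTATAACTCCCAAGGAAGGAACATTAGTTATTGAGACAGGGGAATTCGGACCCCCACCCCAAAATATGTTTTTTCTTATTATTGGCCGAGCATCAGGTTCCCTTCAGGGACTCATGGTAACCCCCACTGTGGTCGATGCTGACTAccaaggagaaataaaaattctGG
Vmn2r61, chr7:42291201-42291400: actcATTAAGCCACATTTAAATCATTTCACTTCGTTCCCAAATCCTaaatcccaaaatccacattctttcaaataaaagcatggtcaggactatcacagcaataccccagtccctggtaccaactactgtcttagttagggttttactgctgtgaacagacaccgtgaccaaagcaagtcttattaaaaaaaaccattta
Vmn2r63, chr7:42913501-42913700: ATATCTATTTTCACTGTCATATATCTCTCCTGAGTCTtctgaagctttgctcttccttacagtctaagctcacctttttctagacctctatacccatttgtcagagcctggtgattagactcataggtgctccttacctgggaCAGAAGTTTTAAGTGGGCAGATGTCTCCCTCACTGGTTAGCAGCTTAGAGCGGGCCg
Vmn2r89, chr14:51465501-51465700: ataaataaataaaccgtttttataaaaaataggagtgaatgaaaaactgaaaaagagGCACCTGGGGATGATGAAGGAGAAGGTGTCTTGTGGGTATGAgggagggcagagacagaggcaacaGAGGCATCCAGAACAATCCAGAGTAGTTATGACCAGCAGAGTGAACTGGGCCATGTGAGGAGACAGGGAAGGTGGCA

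These stretches differed in the share of bases that the assembly masks as repeats, from 10.5% at Vmn2r13 and 40.5% at Vmn2r89 to 53.5% at Vmn2r63 and 79% at Vmn2r61. At Vmn2r13 the gained region, chr5:109167001-109170000, lay in intron 4. The peak there was 3000 and 1600 bp wide with shPHF8, and a second peak of 1800 bp lay in the same intron in shPHF8 replicate 2 only. At Vmn2r61 the region, chr7:42289401-42293000, lay in intron 5, with 3600 and 3400 bp covered in shPHF8. At Vmn2r63 the region, chr7:42911601-42917400, also lay in intron 5, with 3600 and 5400 bp covered. None of these 3 regions touched an exon of its gene.

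The other 2 gained regions lay at the 3′ ends of genes. At Vmn2r89 the region, chr14:51462801-51467800, took in the last 1372 bp of the final exon, all of it non-coding, and the downstream flank, with 5000 and 4400 bp covered in shPHF8. This region also overlapped Gm7247, another protein-coding gene, so it cannot be assigned to Vmn2r89 alone. At Vmn2r97 the region, chr17:18953801-18957400, lay within the longest annotated form of the final exon, where 3556 bp were non-coding and 44 bp were coding in another transcript, with 3600 and 3400 bp covered. A wider region just downstream of the gene, chr17:18958201-18972400, was covered in all 4 libraries, by 9200 and 7800 bp in shCTR and 13000 and 11800 bp in shPHF8.

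Regions seen in a single library were more numerous than gained regions. Of the 44 regions, 10 had a peak in all 4 libraries (22.7%, against 38.0% of all regions). A single shPHF8 library alone held 14 (31.8%, against 14.4%), of which 12 were in replicate 2 and 2 in replicate 1. A single shCTR library alone held 7 (15.9%, against 15.2%), 3 in replicate 1 and 4 in replicate 2. The 12 regions of shPHF8 replicate 2 alone were 27.3% of the regions at members, against 10.2% of all regions. Genes linked to a region of 1 shPHF8 library alone numbered 12 of 121 (9.92%, against 13.6% of all protein-coding genes), and those linked to a region of 1 shCTR library alone numbered 7 (5.79%, against 18.1%). Over all 70705 regions too, those of 1 shPHF8 library alone (10156) outnumbered the gained regions (3031).

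By covered bases, 7 Vmn2r genes were higher in shPHF8, meaning that both shPHF8 libraries had more covered bases over the gene and its flanks than both shCTR libraries, and 0 were lower. This was 5.79% of the members, against 15.7% of all protein-coding genes for higher and 7.25% for lower. Without shPHF8 replicate 1 it was 19 (against 23.8% of all), without shCTR replicate 1 it was 13 (20.7%) and without shPHF8 replicate 2 it was 12 (26.3%). The 7 were the 5 genes with a gained region together with Vmn2r70 and Vmn2r104. Vmn2r13 had 0 covered bp in both shCTR libraries and 3000 and 3400 bp in shPHF8. Vmn2r61 had 0 in both shCTR libraries and 4548 and 3400 bp in shPHF8. Vmn2r89 had 0 in both shCTR libraries and 4372 and 3772 bp in shPHF8. These 3 genes (2.48%, against 1.44% of all protein-coding genes) were free of peaks in shCTR and covered in both shPHF8 libraries, and 0 members showed the opposite pattern (against 2.23%).

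Vmn2r63 had 0 and 2400 covered bp in shCTR, and 5800 and 15490 bp in shPHF8. The condition means differed by 9445 bp, which was less than the gap between the 2 shPHF8 libraries. Besides its gained region, cover lay at the final exon, with 0 and 2400 bp in shCTR and 2200 and 6200 bp in shPHF8. Vmn2r97 had 887 and 1887 bp in shCTR and 6487 and 4687 bp in shPHF8, and its groups stood apart by more than the spread within either. Vmn2r70 had 594 and 0 bp in shCTR and 1194 and 1394 bp in shPHF8, and Vmn2r104 had 2136 bp in both shCTR libraries and 2336 and 2936 bp in shPHF8. The cover of Vmn2r70 and Vmn2r104 lay wholly in the flanks, and with covered bases scaled to the same genome total per library the difference at Vmn2r104, shPHF8 minus shCTR, turned to -135 bp. With peaks of at least 2000 bp only, Vmn2r13 was no longer higher, since both of its peaks in shPHF8 replicate 2 are narrower.

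**Figure D2:**
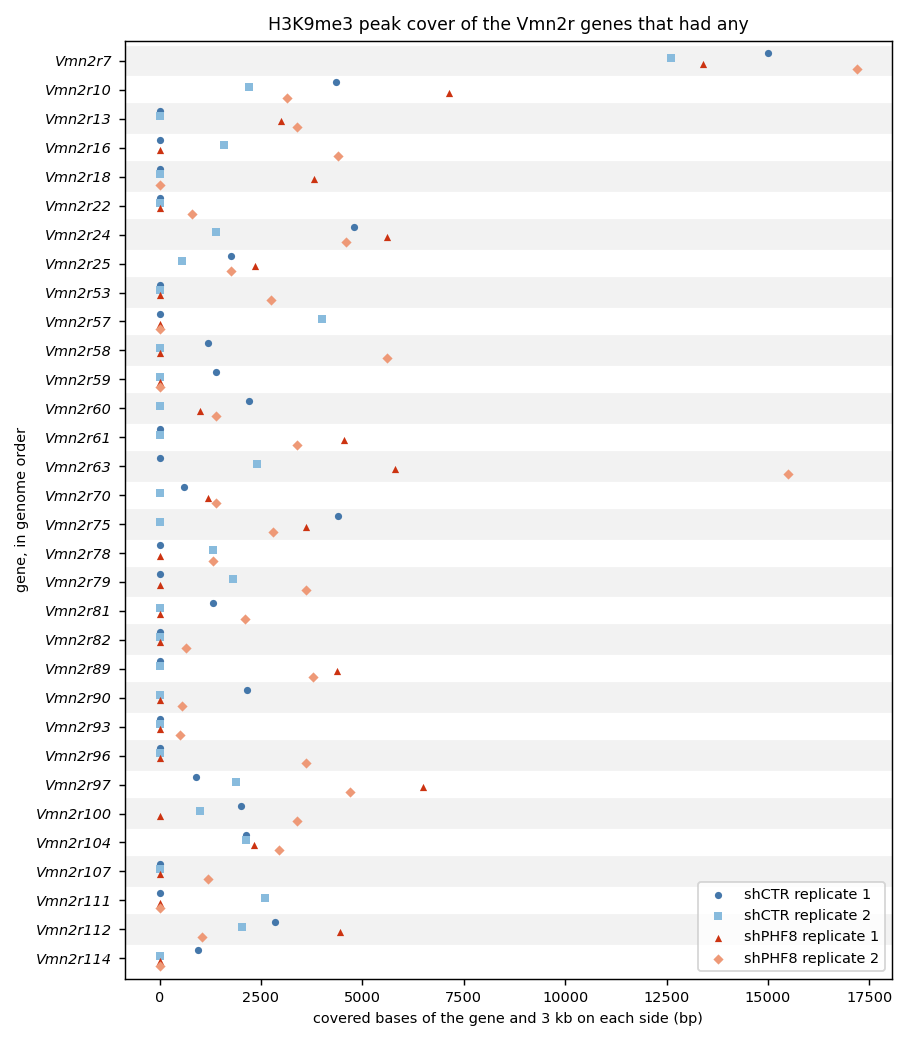
Bases covered by H3K9me3 peaks over the gene and 3 kb on each side (bp, x axis) for the 32 Vmn2r genes with any cover, in genome order (y axis), with 1 point per ChIP library. Both shPHF8 points lie right of both shCTR points at 7 genes, with the widest spread at Vmn2r63 (0, 2400, 5800 and 15490 bp), and Vmn2r7 is covered by 12600 to 17200 bp in all 4 libraries.

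Members covered in every library mostly did not separate the conditions. Vmn2r7, the largest member at 159722 bp and one of the broadly co-expressed receptors, had 15000 and 12600 covered bp in shCTR and 13400 and 17200 bp in shPHF8. Its cover lay in introns 1 and 2, in 3 merged regions. Vmn2r10 had 4338 and 2200 bp in shCTR and 7138 and 3138 bp in shPHF8. Vmn2r24 had 4800 and 1400 bp in shCTR and 5600 and 4600 bp in shPHF8. The groups overlapped at these 3 genes. Vmn2r25, whose 3′ end overlaps that of Vmn2r24, shares the same region and had 1755 and 555 bp in shCTR and 2355 and 1755 bp in shPHF8. Vmn2r112 had 2842 and 2042 bp in shCTR and 4442 and 1042 bp in shPHF8, with the shPHF8 libraries on either side of the shCTR libraries. Of the 5 members outside clusters, Vmn2r18 had 3800 bp in shPHF8 replicate 1 only and the others had none.

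Summed over the family, covered bases were 46199 and 36977 bp in shCTR, and 66717 and 95752 bp in shPHF8. The ratio of the condition means was 1.95 (p = 0.333, exact permutation test, two-sided, the smallest this design allows). Both shPHF8 libraries were above both shCTR libraries, but the 2 shPHF8 libraries differed from each other by more than the 2 shCTR libraries did. The ratio was 1.86 over Vmn1r genes, 1.53 over Olfr genes, 1.24 over Zfp genes and 1.20 over all protein-coding genes. The difference between these ratios was not tested. With covered bases scaled to the same genome total in each library, the ratio for the Vmn2r genes was 1.5. Genes with a covered base numbered 16 and 14 in shCTR, but 15 and 27 in shPHF8, so the number of covered genes did not separate the conditions. Cover in shCTR libraries only was seen at 4 genes (3.31%, against 6.3% of all protein-coding genes), Vmn2r57, Vmn2r59, Vmn2r111 and Vmn2r114, each in 1 library. Cover in shPHF8 libraries only was seen at 10 genes (8.26%, against 4.97%), of which Vmn2r18, Vmn2r22, Vmn2r53, Vmn2r82, Vmn2r93, Vmn2r96 and Vmn2r107 had it in 1 library.

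The distance from each gene to the nearest peak showed no common shift. The median over the 121 genes was 31837 and 45738 bp in shCTR, and 57921 and 17055 bp in shPHF8, with the shPHF8 libraries at both extremes. The ratio of the condition means was 0.966 (p = 1, exact permutation test, two-sided), and leaving out 1 shPHF8 library moved it to 1.49 (replicate 2 left out) or 0.44 (replicate 1 left out). The medians over all protein-coding genes were 4805 and 4235 bp in shCTR and 6428 and 4355 bp in shPHF8, so Vmn2r genes lay farther from peaks in each library. There were 25 members (20.7%) more than 100 kb from a peak in every library, against 3.65% of all protein-coding genes. The farthest was Vmn2r40, at 1319566 bp in both shCTR libraries and 1311766 and 1202566 bp in shPHF8, and Vmn2r38, Vmn2r39, Vmn2r44 and Vmn2r45 were also more than 1 Mb from a peak in every library.

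The 5 members more than 1 Mb from a peak lie in a single stretch of chromosome 7. The longest stretch of chromosomes 1 to 19 without a peak in any of the 4 libraries was chr7:7278601-10134000, 2.86 Mb, and it holds 22 Vmn2r genes, from Vmn2r30 to Vmn2r51, among its 24 protein-coding genes. The next longest, with a length of 2.73 Mb, lies further along the same chromosome and holds 73 protein-coding genes and no Vmn2r gene. In the stretch with the Vmn2r genes, 12.9% of all 50-base stretches occur once in the genome and 1.75% of bases are unknown. A read of 50 bp from most of the rest matches several places exactly. The sources used here do not say whether reads with several matches entered the peak calls, so absence of H3K9me3 and absence of placed reads cannot be told apart there.

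Across all members, the median share of 50-base stretches that occur once was 79.3%, against 97.1% for all protein-coding genes, 84.4% for Vmn1r genes, 95.9% for Olfr genes and 95.6% for Zfp genes. Under 50% of stretches occurred once in 30 members (24.8%), against 4.55% of all protein-coding genes. Of these 30 members 1 had any cover (3.33%, against 13.0% of all protein-coding genes in that range). Where 50 to 80% of stretches occurred once, 13 of 32 members had cover (40.6%, against 46.5%), and where 80 to 90% did, 11 of 26 had cover (42.3%, against 55.6%). Where 90 to 100% occurred once, 7 of 33 members had cover (21.2%), whereas 60.2% of all protein-coding genes in that range did. Little cover was therefore also seen at members with nearly unique sequence. Within the genes, 57.1% of stretches in the coding sequence occurred once, against 67.5% in introns and 81.5% in the other exon bases.

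**Figure D3:**
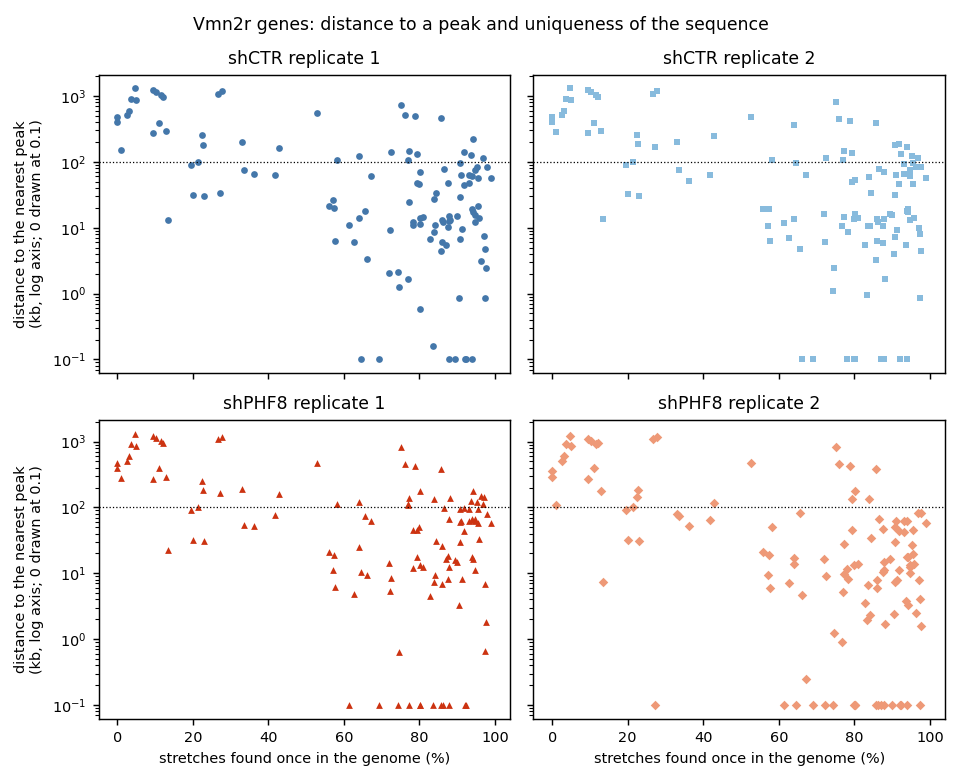
Distance from each of the 121 Vmn2r genes to the nearest H3K9me3 peak (kb, log axis, 0 drawn at 0.1) against the share of the gene's 50-base stretches that occur once in the genome (percent), with 1 panel per ChIP library and a dotted line at 100 kb. Of the 25 genes over 100 kb from a peak in every library, 20 have under 50% of stretches that occur once.

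The clusters as a whole were covered more than the genes in them. The 14 clusters spanned 12.4 Mb, of which peaks covered 4.45 and 3.71% in shCTR, and 5.93 and 6.60% in shPHF8, a ratio of 1.54 (p = 0.333, exact permutation test, two-sided). Cluster bases outside the members and their flanks were covered at 6.11 and 5.13% in shCTR and 8.18 and 8.82% in shPHF8. Within these, bases at other protein-coding genes and their flanks were covered at 21.9 and 19.1% in shCTR and 27.1 and 27.8% in shPHF8. Bases away from all protein-coding genes were covered at 4.60 and 3.79% in shCTR and 6.35 and 6.99% in shPHF8. The cover inside clusters therefore lay mainly between the receptor genes, and it was densest at the genes of other families.

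Between clusters the cover differed widely. The cluster from Vmn2r111 to Vmn2r117, on chromosome 17, had 16.7 and 14.7% covered in shCTR and 19.4 and 18% in shPHF8, and it also holds the zinc finger genes Zfp945 and Zfp40. The cluster from Vmn2r57 to Vmn2r63, on chromosome 7, had 11 and 10.2% in shCTR and 18.6 and 18.2% in shPHF8, and 13 other protein-coding genes stand in it, among them Zfp788, Zfp141, Zfp977, Zfp976 and Zfp975. Here the conditions differed by 7.77 percentage points, the largest difference of the 14 clusters, and 6 of its 7 members had cover in at least 1 library. The cluster from Vmn2r88 to Vmn2r89 had 8.25 and 7.87% in shCTR and 9.32 and 10.4% in shPHF8. The cluster from Vmn2r90 to Vmn2r110, the longest at 2.89 Mb with 22 members, had 4.02 and 2.99% in shCTR and 4.60 and 6.64% in shPHF8.

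A further 6 clusters had little cover. The cluster from Vmn2r80 to Vmn2r83 had 2.96 and 3.02% in shCTR and 4.23 and 3.48% in shPHF8. The cluster from Vmn2r8 to Vmn2r17 had 2.76 and 2.10% in shCTR and 4.92 and 3.84% in shPHF8, and that from Vmn2r65 to Vmn2r76 had 2.85 and 1.63% in shCTR and 3.42 and 5.14% in shPHF8. The cluster from Vmn2r19 to Vmn2r27 had 1.75 and 0.736% in shCTR and 1.93 and 3.10% in shPHF8. In these 4 clusters both shPHF8 libraries were higher, although the nearest libraries of the last, at 1.75 and 1.93%, lay close together. The groups overlapped in the cluster from Vmn2r1 to Vmn2r7, with 2.59 and 2.33% in shCTR and 2.57 and 3.09% in shPHF8. They overlapped also in that from Vmn2r77 to Vmn2r79, with 1.12 and 1.52% in shCTR and 0 and 3.44% in shPHF8.

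The remaining clusters were nearly bare. The cluster from Vmn2r29 to Vmn2r37, with 17 members the second largest, had 0.0402 and 0.0201% covered in shCTR and 0.0201% in both shPHF8 libraries. The neighbouring cluster from Vmn2r46 to Vmn2r52 had no peak in 3 libraries and 1.59% covered in shPHF8 replicate 2. In these 2 clusters 13.4 and 28.1% of 50-base stretches occur once in the genome, so the limit given for the long stretch on chromosome 7 applies to both. The clusters from Vmn2r53 to Vmn2r56 and from Vmn2r84 to Vmn2r87 had no peak in any library, although 59.4 and 68.3% of their stretches occur once. In all, both shPHF8 libraries were above both shCTR libraries in 8 of the 14 clusters, and both were below in 0. The same count over windows elsewhere in the genome was not made. With covered bases scaled to the same genome total, the ratio inside clusters was 1.17 (p = 0.667, exact permutation test, two-sided), and the conditions no longer separated.

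**Figure D4:**
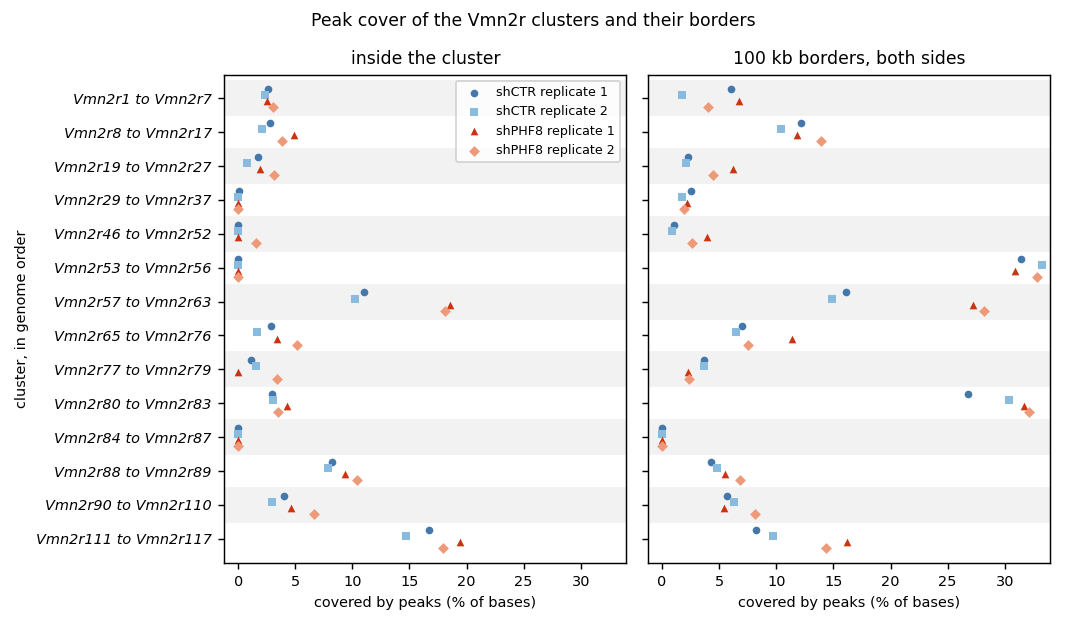
Share of bases covered by H3K9me3 peaks (percent, x axis) inside each of the 14 Vmn2r clusters (left) and in its 100 kb borders on both sides together (right), with 1 point per ChIP library. The clusters from Vmn2r57 to Vmn2r63 and from Vmn2r111 to Vmn2r117 are covered most (10.2 to 18.6% and 14.7 to 19.4%), and the cluster from Vmn2r53 to Vmn2r56 is at 0 between well covered borders.

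The borders, 100 kb on each side of a cluster, were covered more than the clusters in each library. Cover more than 120 kb from the edges was nearer to that of the clusters, so the contrast holds for the border length used. Of 50-base stretches, 63.8% occurred once in the clusters and 76.8% in the borders, and the part of this in the contrast was not tested. They had 9.09 and 9.03% covered in shCTR, and 11.5 and 11.4% in shPHF8, a ratio of 1.26 (p = 0.333, exact permutation test, two-sided). Once covered bases were scaled to the same genome total the ratio was 0.962, so the direction at the borders depends on the genome-wide difference between conditions. Of the 28 borders, both shPHF8 libraries were higher in 10 and lower in 2, and 6 had no peak in any library. The same count over windows elsewhere was not made. Of the 6 without a peak, the border after Vmn2r37 had 9.81% of stretches that occur once and that before Vmn2r46 had 0%. The limit given for the long stretch on chromosome 7 applies to these borders too. The lower borders were the one after Vmn2r79, with 7.4% in both shCTR libraries and 4.6 and 4.8% in shPHF8, and the one before Vmn2r88, with 5.4 and 6.8% in shCTR and 3.2 and 5.0% in shPHF8.

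A bare cluster stood between well covered borders. Around the cluster from Vmn2r53 to Vmn2r56, with no peak inside, the border before it had 28.6 and 25.6% in shCTR and 26.2 and 27.4% in shPHF8. The border after it, with the zinc finger genes Zscan18, Zfp329 and Zfp110, had 34.2 and 41.0% in shCTR and 35.6 and 38.2% in shPHF8. The shPHF8 libraries lay within the range of the shCTR libraries on both sides. The border before Vmn2r80 had 41.6% in both shCTR libraries and 42.6 and 44.6% in shPHF8. The largest difference at a border was after Vmn2r63, with 19.2 and 18.8% in shCTR and 34.6 and 35.4% in shPHF8, next to the cluster with the largest difference inside.

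Averaged over the 28 cluster edges, the first 20 kb inside the clusters were covered at 0 and 1.01% in shCTR, and 0.491 and 1.64% in shPHF8. The first 20 kb outside were covered at 4.14 and 5.41% in shCTR and 6.11 and 8.07% in shPHF8. Outside cover was highest between 60 and 100 kb from the edge, for example 12.8 and 12.3% in shCTR and 17 and 16.2% in shPHF8 between 60 and 80 kb. Deeper inside, cover was higher again in some bins, such as 9.54 and 7.97% in shCTR and 10.3 and 11.3% in shPHF8 between 80 and 100 kb, where 22 edges gave a value. Cover thus dropped at the first receptor gene in each library, and in the first 20 kb inside the 2 conditions overlapped. The clusters also hold a smaller share of stretches that occur once than the borders, and the part of this in the drop was not tested.

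**Figure D5:**
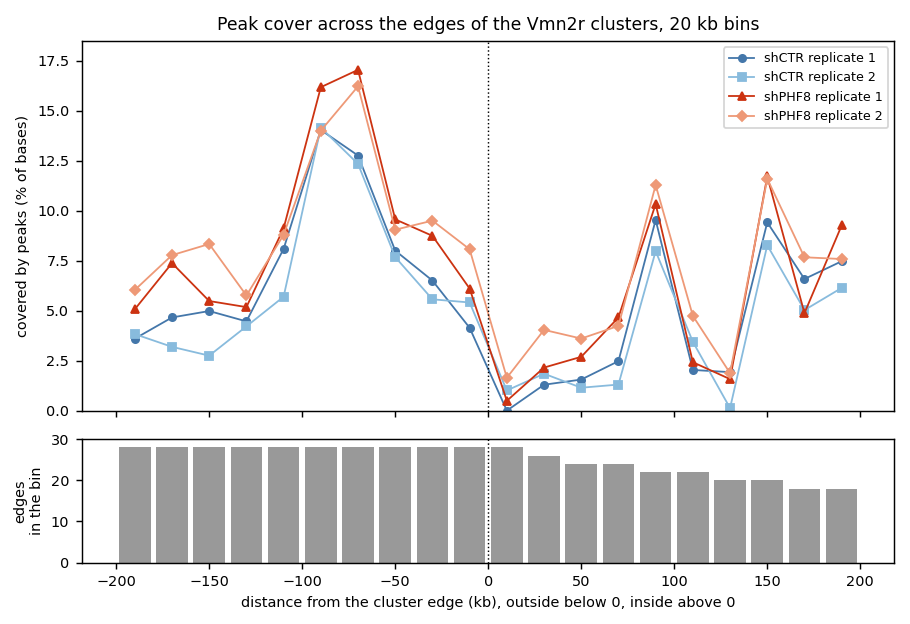
Share of bases covered by H3K9me3 peaks (percent, upper panel) in 20 kb bins across the edges of the Vmn2r clusters, with negative distances outside and positive distances inside up to the middle of a cluster, and the number of edges in each bin (lower panel). The first bin outside lies at 4.14 to 8.07% and the first bin inside at 0 to 1.64% in the 4 libraries.

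The regions at the members held more repeats than regions at large. Across the 44 regions the median share of soft-masked bases, which the assembly marks as repeats, was 65.3%, against 27.6% for all 70705 regions. The members themselves have a median of 40.1% soft-masked bases, against 22.4% for all protein-coding genes, and the part of this in the difference between regions was not tested. Pooled over bases, 52.6% of the clusters, 50.0% of member introns and 51.2% of cluster bases under a peak of any library were soft-masked. By this measure covered cluster bases were not richer in repeats than the clusters as a whole. Median GC content was 43.7% at the members and 44.7% over all regions, and the genes have a median GC content of 36.2%. By class the median soft-masked share was 56.7% for the 5 gained regions and 60.4% for the 10 regions present in all libraries. The gained region at Vmn2r13 had 6.57% of bases soft-masked, but 77.3% of its 50-base stretches occurred once, the lowest share of the 5. A low soft-masked share is therefore not the same as unique sequence.

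Genes of vomeronasal ligands, of co-expressed families and of other receptor families were described by lists. None of the 15 Esp genes, which encode exocrine gland-secreting peptides, had cover. Of 22 Mup genes, which encode major urinary proteins, 2 had cover, and Mup5 had it in all 4 libraries with 7433 and 7233 bp in shCTR and 9233 and 7233 bp in shPHF8. Of 9 H2-M genes, non-classical class I genes co-expressed with some V2Rs, 1 had cover. Of 7 formyl peptide receptor genes, a family with chemoreceptors of the organ among its members, 2 had cover. Of 15 Taar genes, the trace amine-associated receptors, 6 had cover, 2 were higher and 2 were linked to a gained region. At both genes linked to a gained region, cover reached the flanks in shPHF8 replicate 1 only. These lists contained 0 lower genes. Over all protein-coding genes 57% had cover, 15.7% were higher, 7.25% were lower and 5.16% were linked to a gained region, and with lists this short the counts are given as a description.

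The genes for signalling and identity of vomeronasal neurons numbered 21 entries, of which 13 had cover, 4 were higher, 5 were lower, 2 were linked to a gained region and 5 to a lost region. The shares of all protein-coding genes for these calls were 57, 15.7, 7.25, 5.16 and 8.9%, in that order. Ddit3 has 2 entries in the annotation. Gnao1, the G protein subunit through which V2Rs signal, was higher, with 24000 and 28200 covered bp in shCTR and 30400 and 28600 bp in shPHF8. The nearest libraries, at 28200 and 28600 bp, lay close together, and Gnao1 was also linked to a lost region. Trpc2, the cation channel of vomeronasal transduction, had no cover in any library, and its nearest peak was 27716 and 27516 bp away in shCTR and 30116 and 179916 bp away in shPHF8. Robo2, an axon guidance receptor of basal vomeronasal neurons, was lower, with 5200 and 6200 bp in shCTR and 2800 and 1600 bp in shPHF8. Ano2, a chloride channel of olfactory neurons, was higher, with 54200 and 48600 bp in shCTR and 145400 and 140926 bp in shPHF8. Ano2 was linked to both a gained and a lost region, and Robo2 to a lost region.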

How the data were processed

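H3K9me3 ChIP-seq was measured in 4 ChIP libraries, 2 with shCTR and 2 with shPHF8, with 1 input per condition that was not used here. The authors sequenced single-end reads of 50 bp, and deposited 1 list of broad peaks per library, called with SICER2 on mm10. Its window, gap, false discovery rate and use of the input are not given in the sources used here. The study's methods name SOAPaligner for the alignment, whereas the submitters' processing notes name Bowtie2 2.3.5.1, SAMtools 1.9 and deepTools. The deposited values are positions only, with no score.

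Starts were read as 0-based and ends as inclusive, and positions are given 1-based. Genes were taken from GENCODE and sequences from GRCm38.p6 of RefSeq, the same build. Covered bases of each gene with 3 kb flanks, distances, clusters (joined within 500 kb), 100 kb borders and merged regions were computed for all protein-coding genes with Python 3.11.15 and numpy 2.4.6. The share of 50-base stretches that occur once was counted by exact match on both strands over the chromosomes and unplaced sequences, for other genes at every 100th base. On simulated peaks the code gave the same cover, merged regions and distances as bedtools 2.31.1, and found all of 200 planted gained and 200 planted lost regions among 2400, with 0 false calls. Conditions were compared with the exact permutation test over libraries.

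The member genes and gene lists were chosen with earlier results of these data known. Named genes were the first and last member of each cluster, members with cover in all 4 libraries, members linked to gained or lost regions, higher and lower members, and the member farthest from any peak, besides genes of the lists. Vmn2r81, Vmn2r29, Vmn2r18, Vmn2r38, Vmn2r39, Vmn2r44, Vmn2r45 and the members with cover in 1 condition only were named after their values were seen, as were the list genes Mup5, Gnao1, Trpc2, Robo2 and Ano2. Alternatives left out each library, changed flanks, peak width, merging, overlap, scaling, cluster and border sizes, or used the replicate number as a block. Same-numbered libraries deviated with a correlation of -0.101 over 11863 protein-coding genes with cover, so the numbers were not taken as pairs.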

Additional observations from a re-analysis of the deposited data

How the results depend on the processing

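With 2 libraries per condition, no alternative can pass a test, and the peak lists hold no depth. The count of higher genes was 7, and it was 15 with flanks of 10 kb (against 21.2% of all protein-coding genes). Without 1 library the counts ran from 7 to 19 for higher genes (20.7 to 26.3% of all protein-coding genes), 1 to 5 for lower genes (11.8 to 14.8%), 5 to 14 for genes with a region seen in shPHF8 only (8.98 to 14.5%), and 0 to 4 for genes with a region seen in shCTR only (12.1 to 17.7%), all by a looser criterion that asks less of the libraries. The highest counts of higher genes and of regions in shPHF8 only, 19 and 14, both came without shPHF8 replicate 1, and the highest count of lower genes, 5, without shCTR replicate 2. Leaving out 1 library, the ratio of covered length over genes and flanks ran from 1.60 to 2.3, that inside clusters from 1.41 to 1.69 and that of the borders from 1.25 to 1.27. Other border lengths, joining distances or wide peaks alone gave border ratios of up to 1.38 and cluster ratios of up to 1.71. Leaving out 1 library, the ratio of median distances ran from 0.44 to 1.49, and it was 1.17 without members in which under 50% of stretches occur once, an alternative added after seeing the data. Scaling covered bases to the same genome total gave ratios of 1.5 over genes, 1.17 inside clusters and 0.962 at the borders, and a difference of -135 bp at Vmn2r104. The causes were not tested.

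With the replicate number as a replicate block, 10 genes were higher (against 19.1% of all protein-coding genes) and 0 were lower (against 9.29%). The ratios were then 1.93 over genes, 1.54 inside clusters and 1.26 at the borders. With the pairs crossed, an alternative added after seeing the data, 8 genes were higher (against 19.3%) and 0 were lower (against 9.51%).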

Other observations

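Vmn2r pseudogenes on chromosomes 1 to 19, which the report leaves out, numbered 113. Of these, 26 (23%, against 57% of all protein-coding genes) had a covered base in the gene or its 3 kb flanks in at least 1 library. Cover in all 4 libraries was seen at 11 of the 113 (against 35.7% of all protein-coding genes). In shPHF8, 8 (7.08%, against 15.7%) were higher and 0 (against 7.25%) were lower. Vmn2r-ps54, in the cluster from Vmn2r57 to Vmn2r63, had 11800 and 11600 covered bp in shCTR and 22022 and 13600 bp in shPHF8. Vmn2r-ps26 had 7600 and 7000 bp in shCTR and 14066 and 13000 bp in shPHF8. Vmn2r-ps69 had 0 in both shCTR libraries and 2800 and 2200 bp in shPHF8. It was 1 of 2 among the 113 pseudogenes linked to a region seen in both shPHF8 libraries and no shCTR library (against 5.16% of all protein-coding genes). The opposite link was seen at 0 pseudogenes (against 8.9%). The median distance from a pseudogene to a peak was 30170 and 40289 bp in shCTR and 28806 and 26078 bp in shPHF8. These 3 pseudogenes were chosen after their values were seen.

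Vmn2r121, the protein-coding member on the X chromosome, had 3040 and 2200 covered bp in shCTR and 2200 and 3440 bp in shPHF8, and the conditions overlapped.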
